A study of Homo sapiens with 6 samples.

Results

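The genes described here fold newly made procollagen and cut off its end pieces. They are the 3 alpha subunits of collagen prolyl 4-hydroxylase (P4HA1, P4HA2 and P4HA3), the beta subunit P4HB, the collagen chaperone SERPINH1, the procollagen N-proteinases ADAMTS2, ADAMTS3 and ADAMTS14, the procollagen C-proteinase BMP1 and its enhancer PCOLCE. They were chosen by function, by gene name, and make up 10 of the 41497 named gene entries in the data. The entry on the primary chromosome was used for each. RNA was sequenced from HK-2 cells, an immortalised human proximal tubular epithelial cell line, with wild-type genotype in every library. The labels gave 3 control libraries and 3 libraries treated with TGF-beta1 (TGF-β1 below) for 24 hours. Culture medium with fetal bovine serum was named in the labels, whereas the study's methods describe TGF-β treatment without serum, with a dose given for such experiments in general. The dose of the sequenced libraries and the medium of their controls were not stated separately. Libraries of a group were not stated to come from separate cultures, so the spread between them may be technical, and p values refer to that spread only.

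Procollagen chains are hydroxylated on proline in the endoplasmic reticulum (ER) by an enzyme made of alpha and beta subunits, and this hydroxylation keeps the triple helix stable at body temperature. SERPINH1, also called HSP47, binds the folded helix until it leaves the ER. Outside the cell, N- and C-proteinases remove the propeptides, after which collagen molecules can assemble into fibrils, the material of scar tissue in the fibrotic kidney.

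After TGF-β1, 4 of the 10 genes were higher (P4HA1, P4HA3, SERPINH1 and BMP1) and 2 were lower (P4HA2 and ADAMTS3). P4HB and PCOLCE did not pass the test, and ADAMTS2 and ADAMTS14 had too few reads to enter it. Among the tested members the largest fall was that of ADAMTS3, to 0.420 of its control level, and the largest rise that of P4HA3, 3.07-fold from a very low level. A gene was called higher or lower at an adjusted p under 0.05 in the edgeR quasi-likelihood test over 14860 genes, with Benjamini-Hochberg adjustment. Of all genes tested, 44.3% were called, 22.2% higher and 22.1% lower. Of the 8 tested members 6 were called, but the members were chosen with earlier results of these data known. Groups did not overlap for 6 of these 8 genes, as for 55.6% of all genes tested. A call with at least a 2-fold difference was made for P4HA3 and ADAMTS3, where 3.68% of all genes passed as higher and 5.38% as lower. The median log2 fold change was 0.12 over the 8 tested members and 0.0063 over all genes. In bulk RNA, fewer cells that express a gene and less of its RNA per cell cannot be told apart.

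Total counts ranged from 21.9 to 26.9 megacounts per library. The 6 genes used to check the TGF-β response, among them SMAD7, were all higher, with a median log2 fold change of 1.64. Levels are given in CPM (counts per megacount of the library, scaled by the TMM method of edgeR). On the second principal component of log2(CPM + 1), which held 9.38% of the variance, TGF-β1 replicate 1 lay at -19.8, apart from the other TGF-β1 libraries at 10.3 and 10.5. Without this library all 6 calls remained, with log2 fold changes of 0.32 for P4HA1, -0.21 for P4HA2, 1.52 for P4HA3, 0.22 for SERPINH1, -1.18 for ADAMTS3 and 0.56 for BMP1. Tubular epithelial markers summed to 1115 to 1198 CPM in control and 1254 to 1446 CPM in TGF-β1 libraries. Of the 11 tested, 5 were higher, among them the abundant keratins KRT8 and KRT18, and 5 were lower, among them KRT19 and PAX8, with a median log2 fold change of -0.42. In this list 5 of the 14 were under 1 CPM in every library and LRP2, the brush border receptor megalin, had no count. Fibroblast markers summed to 59.9 to 69.4 CPM in control and 57.1 to 58.3 CPM after TGF-β1, and 6 of the 9 were under 1 CPM in every library. Of the 3 tested, 1 was higher and 2 were lower, with log2 fold changes from -1.72 to 3.38. Endothelial markers summed to 0.940 to 1.68 CPM in control and to at most 0.0955 CPM after TGF-β1, with 4 of the 5 under 1 CPM in every library. The 1 tested was called lower, but at these levels it entered the test only through the control libraries. This call therefore adds nothing to the sums. Leukocyte markers summed to 95.0 to 104 CPM in control and 61.6 to 85.4 CPM after TGF-β1, with CD3E at 0 counts and 4 of the 6 under 1 CPM in every library. The 2 tested were both called lower. The part of such cells in the results was not tested.

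Promoter sequence of 4 members is shown because they show contrasts within the set: P4HA1, one of the alpha subunits that rose, the beta subunit that did not pass the test, the chaperone that rose and the N-proteinase that fell. Each sequence is the 250 bases just before a RefSeq start of the gene on GRCh38.p14, written 5′ to 3′ on the strand of the gene. The windows are chr10:73096867-73097116 on the minus strand for P4HA1, chr17:81860536-81860785 on the minus strand for P4HB, chr11:75562003-75562252 on the plus strand for SERPINH1 and chr4:72569222-72569471 on the minus strand for ADAMTS3. Capitals mark matches to short motifs, searched on both strands, so that the letters shown can be those of the opposite strand. The motif bound by SMAD factors was searched as CAGACA and the core of the hypoxia response element as ACGTG. The GC box, which binds SP1, was searched as GGGCGG. The TATA box of core promoters was searched as TATAAA, and the heat shock element as GAANNTTC with any base at N.
P4HA1: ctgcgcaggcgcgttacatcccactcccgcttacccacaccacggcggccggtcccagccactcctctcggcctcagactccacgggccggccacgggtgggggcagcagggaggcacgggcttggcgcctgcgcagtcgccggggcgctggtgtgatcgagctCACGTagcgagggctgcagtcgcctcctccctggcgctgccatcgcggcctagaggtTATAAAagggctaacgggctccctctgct
P4HB: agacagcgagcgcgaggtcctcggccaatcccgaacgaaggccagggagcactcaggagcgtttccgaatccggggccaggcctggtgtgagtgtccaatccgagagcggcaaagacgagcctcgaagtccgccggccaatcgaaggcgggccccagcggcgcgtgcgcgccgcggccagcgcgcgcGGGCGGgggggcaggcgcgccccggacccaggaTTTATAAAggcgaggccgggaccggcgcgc
SERPINH1: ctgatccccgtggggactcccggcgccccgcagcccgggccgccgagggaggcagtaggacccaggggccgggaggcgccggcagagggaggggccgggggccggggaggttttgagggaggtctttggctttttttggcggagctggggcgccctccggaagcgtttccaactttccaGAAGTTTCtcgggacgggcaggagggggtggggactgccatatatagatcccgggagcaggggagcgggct
ADAMTS3: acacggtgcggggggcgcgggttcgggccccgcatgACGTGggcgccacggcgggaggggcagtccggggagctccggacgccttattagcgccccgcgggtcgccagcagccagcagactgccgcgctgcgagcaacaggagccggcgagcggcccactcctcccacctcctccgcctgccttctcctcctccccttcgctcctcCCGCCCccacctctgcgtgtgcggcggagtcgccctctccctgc

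The P4HA1 window held ACGTG 86 bases and TATAAA 29 bases before the start, counted from the first marked base. The P4HB window held GGGCGG at 63 bases and 2 matches to TATAAA on opposite strands, at 30 and 28 bases, which overlap. SERPINH1 had GAANNTTC at 71 bases. A second RefSeq start of SERPINH1 lies 220 bases further on, and its window (not printed) held ACGTG at 184 and GGGCGG at 148 bases and no match to GAANNTTC. ADAMTS3 had ACGTG at 214 and GGGCGG at 44 bases. Over all 34941 windows of this length in the table, 13.6% held CAGACA, 18.5% ACGTG, 42.5% GGGCGG, 10.8% TATAAA and 5.8% GAANNTTC. GC content was 70.0% for P4HA1, 72.4% for P4HB, 70.0% for SERPINH1 and 75.2% for ADAMTS3, beside a median of 58.0% over all windows. Promoter entries were matched for 8 of the 10 members, and P4HA3 and BMP1 had none. CAGACA was found in the window of P4HA2 and in no other matched member, but the RefSeq start of P4HA2 lies 762 bases inside the gene as the data list it. These matches are letters in a window and not measured binding sites.

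The alpha subunits of prolyl 4-hydroxylase moved in different directions. P4HA1 encodes the catalytic subunit of the widely expressed enzyme and lies at chr10:73007217-73096866 on the minus strand. Coordinates of genes are those listed in the data, on GRCh38. The level of P4HA1 was 188, 187 and 183 CPM in the control libraries and 228, 235 and 233 CPM after TGF-β1. All 3 TGF-β1 libraries were above all 3 controls. The mean rose from 186 ± 2.79 to 232 ± 3.38 CPM (SD, n = 3), a log2 fold change of 0.32 ± 0.05 (SE; 95% interval 0.22 to 0.43) with an edgeR adjusted p of 0.000277.

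P4HA2, the catalytic subunit of a second form of the enzyme, lies at chr5:132190147-132227853 on the minus strand. It was at 459, 453 and 451 CPM in control and at 387, 402 and 393 CPM after TGF-β1. Here every TGF-β1 library was below every control. The mean fell from 454 ± 3.88 to 394 ± 7.41 CPM (SD, n = 3), a log2 fold change of -0.21 ± 0.05 (SE; 95% interval -0.32 to -0.099) with an edgeR adjusted p of 0.00557. The antisense gene P4HA2-AS1 overlaps its end and had 37 reads over the control and 28 over the TGF-β1 libraries.

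P4HA3, the least expressed alpha subunit in these cells, lies at chr11:74259923-74311654 on the minus strand. Raw counts of 20, 11 and 12 in the controls compared with 55, 40 and 40 in the treated libraries, or 0.886, 0.450 and 0.511 against 2.11, 1.65 and 1.91 CPM. The groups did not overlap. The mean rose from 0.616 ± 0.236 to 1.89 ± 0.230 CPM (SD, n = 3), a log2 fold change of 1.62 ± 0.27 (SE; 95% interval 1.03 to 2.21) with an edgeR adjusted p of 0.000623. The size of the rise varied with the libraries used, from 1.44 to 1.97 when each was left out in turn. Tested against a log2 fold change of 1 (glmTreat of edgeR), P4HA3 did not pass, at an adjusted p of 0.107. P4HA3-AS1, which overlaps the start of the gene, had no read.

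P4HB encodes protein disulfide isomerase, which serves as the beta subunit, and lies at chr17:81843159-81860535 on the minus strand. It was at 1428, 1445 and 1314 CPM in control and at 1456, 1335 and 1269 CPM after TGF-β1. The groups overlapped, and both the highest and the lowest library were TGF-β1 libraries. Means were 1396 ± 70.9 and 1354 ± 95.0 CPM (SD, n = 3), and the log2 fold change of -0.04 ± 0.07 (SE) did not pass (edgeR adjusted p = 0.626). The 95% interval ran from -0.19 to 0.10, that is, a fold from 0.876 to 1.07.

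**Figure D1:**
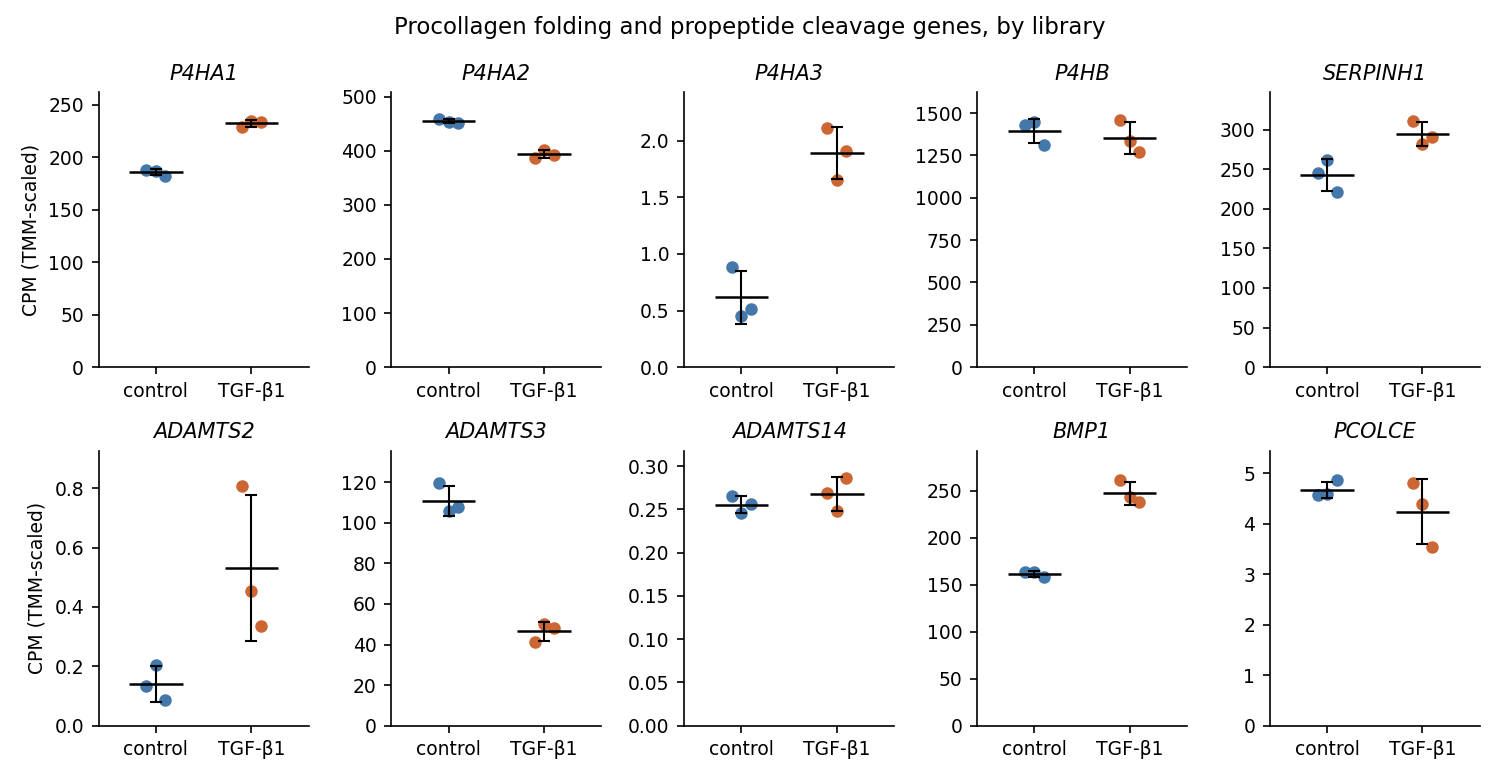
CPM (TMM-scaled, vertical axis from 0) of the 10 genes in each of the 3 control (blue) and 3 TGF-β1 (orange) libraries, with the mean and SD as bars. P4HA1, P4HA3, SERPINH1 and BMP1 lie higher and P4HA2 and ADAMTS3 lower in all 3 TGF-β1 libraries, ADAMTS2 is at most 0.204 CPM in control and at least 0.334 CPM in TGF-β1 libraries, and P4HB, ADAMTS14 and PCOLCE overlap.

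Levels of different genes were compared per gene length, as TPM (counts per base of gene length, scaled to the same total in every library but not by TMM). In control cells P4HA2 was the most abundant alpha subunit, at 292 ± 3.23 TPM, followed by P4HA1 at 213 ± 1.27 and P4HA3 at 0.750 ± 0.276 TPM (SD, n = 3). After TGF-β1, P4HA1 stood at 245 ± 10.4, P4HA2 at 233 ± 10.7 and P4HA3 at 2.13 ± 0.204 TPM. Across the libraries the ranges of P4HA1 (233 to 253 TPM) and P4HA2 (222 to 243 TPM) then overlapped, but within each library P4HA1 was the higher. Order between genes in TPM, here and below, rests on the gene lengths listed in the data, 2907 bases for P4HA1 and 5175 for P4HA2. In CPM, P4HA2 stayed above P4HA1 after TGF-β1, at 394 against 232 CPM. The log2 difference of their ratio between the groups does not depend on these lengths. The ratio of P4HA2 to P4HA1 was 1.37, 1.36 and 1.39 in the control and 0.951, 0.960 and 0.945 in the TGF-β1 libraries. The mean went from 1.37 ± 0.0143 to 0.952 ± 0.00745 (SD, n = 3), a log2 difference of -0.53, with complete separation of the groups. The exact two-sided permutation test gave p = 0.1, the smallest that 3 against 3 libraries allow, and 0.2 after Benjamini-Hochberg adjustment over 2 ratios.

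The share of P4HA1 in the summed alpha subunit level was 42.0% in control and 51.0% after TGF-β1. That of P4HA2 went from 57.8% to 48.6%, and that of P4HA3 from 0.148% to 0.444%. The sum itself was 506 ± 3.69 TPM in control and 481 ± 20.9 TPM after TGF-β1, ranging from 502 to 510 and from 458 to 498. P4HB was far above it, at 1600 ± 59.2 and 1429 ± 68.7 TPM. Its TPM ranges, 1536 to 1654 and 1354 to 1490, did not overlap, unlike its TMM-scaled CPM. The ratio of summed alpha subunits to P4HB was 0.312, 0.305 and 0.332 in control, against 0.307, 0.346 and 0.359 after TGF-β1. These values overlapped, and the exact two-sided permutation p was 0.3 (0.3 adjusted).

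**Figure D2:**
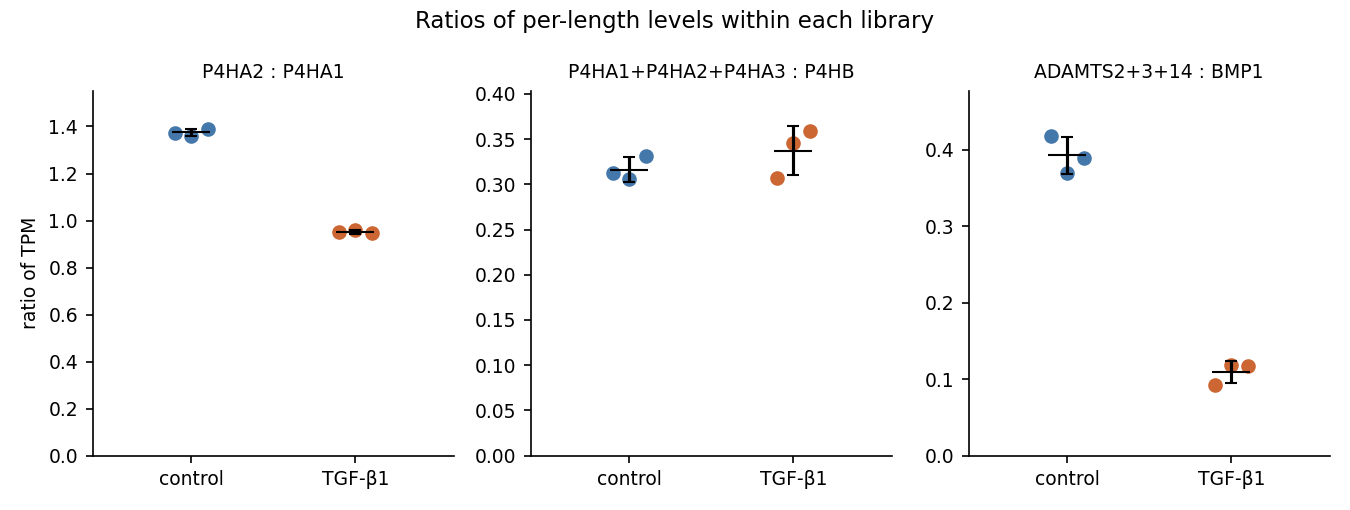
Ratios of TPM within each library (vertical axes from 0) for P4HA2 to P4HA1, the 3 alpha subunits to P4HB, and the 3 N-proteinases to BMP1, in control (blue) and TGF-β1 (orange) libraries with mean and SD. The first ratio goes from 1.37 to 0.952 and the last from 0.392 to 0.109 without overlap, while the middle ratios, 0.316 and 0.337 on average, overlap.

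SERPINH1, the collagen-specific chaperone of the ER, lies at chr11:75562253-75572783 on the plus strand. It was at 246, 261 and 221 CPM in control and at 311, 281 and 290 CPM after TGF-β1. All TGF-β1 libraries were above all controls, the closest pair being 281 and 261 CPM. The mean rose from 243 ± 20.3 to 294 ± 15.4 CPM (SD, n = 3), a log2 fold change of 0.28 ± 0.07 (SE; 95% interval 0.13 to 0.43) with an edgeR adjusted p of 0.00735. This call depended on the scaling. With total counts alone, under which the median over all genes moved from 0.0063 to -0.10 on the log2 scale, SERPINH1 was at 0.17 with an edgeR adjusted p of 0.0638. Per length, SERPINH1 was at 314 ± 23.0 TPM in control, within its own spread of P4HA2, and at 351 ± 8.41 TPM after TGF-β1, above each alpha subunit.

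Of the N-proteinases, ADAMTS3 was the only one with more than 1 CPM in any library. It lies at chr4:72280969-72569221 on the minus strand and is known for cutting the N-propeptide of type II procollagen and for activating VEGF-C. The controls had 2695, 2586 and 2528 counts and the treated libraries 1076, 1215 and 1008, or 119, 106 and 108 against 41.3, 50.3 and 48.1 CPM. The groups were far apart, with no overlap.
The mean fell from 111 ± 7.40 to 46.6 ± 4.66 CPM (SD, n = 3), a log2 fold change of -1.25 ± 0.08 (SE; 95% interval -1.43 to -1.08) with an edgeR adjusted p of 4.35e-07. ADAMTS3 also passed the test against a log2 fold change of 1 (glmTreat of edgeR, adjusted p = 0.024), the only member to do so. By log2 fold change it was the 551st from the bottom among the 14860 genes tested, and by TPM it moved from rank 3604 to rank 6523 of all named entries.

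ADAMTS2, the N-proteinase of type I procollagen whose loss causes a form of Ehlers-Danlos syndrome with fragile skin, lies at chr5:179110853-179345461 on the minus strand. It had 3, 5 and 2 reads in the control and 21, 11 and 7 in the TGF-β1 libraries, or 0.133, 0.204 and 0.0852 against 0.807, 0.455 and 0.334 CPM. The groups did not overlap, and TGF-β1 replicate 1 alone held 21 of the 39 reads after TGF-β1. The reads summed over each group, 10 and 39, gave a depth-corrected ratio of 3.86 (95% exact interval 1.89 to 8.68), and the exact conditional test gave p = 3.88e-05, which covers counting error only. The exact two-sided permutation test over libraries gave p = 0.1, the smallest it allows. ADAMTS2 did not pass the count filter. Without the filter, the log2 fold change was 1.90 ± 0.51 (SE) by edgeR (adjusted p = 0.00163) and 1.93 by DESeq2 (adjusted p = 0.0581). An entry of the same name on an alternate contig had no read.

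ADAMTS14, a close relative of ADAMTS2, lies at chr10:70672506-70762441 on the plus strand. It had 6 reads in each control library and 7, 6 and 6 reads after TGF-β1. The groups overlapped. The ratio of the summed reads, 18 and 19, was 1.05 (95% exact interval 0.520 to 2.11; exact conditional p = 1.0), and these reads do not exclude a ratio within that interval. ADAMTS3 made up 99.6% of the summed N-proteinase TPM in control and 98.2% after TGF-β1.

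BMP1 encodes the procollagen C-proteinase, also known as bone morphogenetic protein 1, and lies on the plus strand of chromosome 8. Levels were 163, 163 and 158 CPM in control and 261, 244 and 238 CPM after TGF-β1. Every TGF-β1 library was above every control. The mean rose from 162 ± 3.11 to 247 ± 12.2 CPM (SD, n = 3), a log2 fold change of 0.62 ± 0.05 (SE; 95% interval 0.50 to 0.73) with an edgeR adjusted p of 5.17e-06. With total counts alone it was 0.51 and still called.

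PCOLCE, which enhances the activity of BMP1 on procollagen, lies at chr7:100602363-100608175 on the plus strand. It was at 4.56, 4.58 and 4.86 CPM in control and at 4.80, 4.38 and 3.53 CPM after TGF-β1. The groups overlapped. Means were 4.67 ± 0.166 and 4.24 ± 0.646 CPM (SD, n = 3), a log2 fold change of -0.14 ± 0.14 (SE; 95% interval -0.46 to 0.18) with an edgeR adjusted p of 0.478. In TPM, which is not TMM-scaled, its ranges of 7.32 to 8.07 and 5.36 to 6.98 did not overlap. PCOLCE-AS1, which overlaps its start on the other strand, had 2 reads in all, both in TGF-β1 libraries.

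The ratio of summed N-proteinase TPM to BMP1 TPM was 0.418, 0.370 and 0.389 in control, against 0.0924, 0.119 and 0.117 after TGF-β1. It is given without a test, since it was chosen after the values of both were seen. The mean ratio went from 0.392 ± 0.0240 to 0.109 ± 0.0148 (SD, n = 3), a log2 difference of -1.85.

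**Figure D3:**
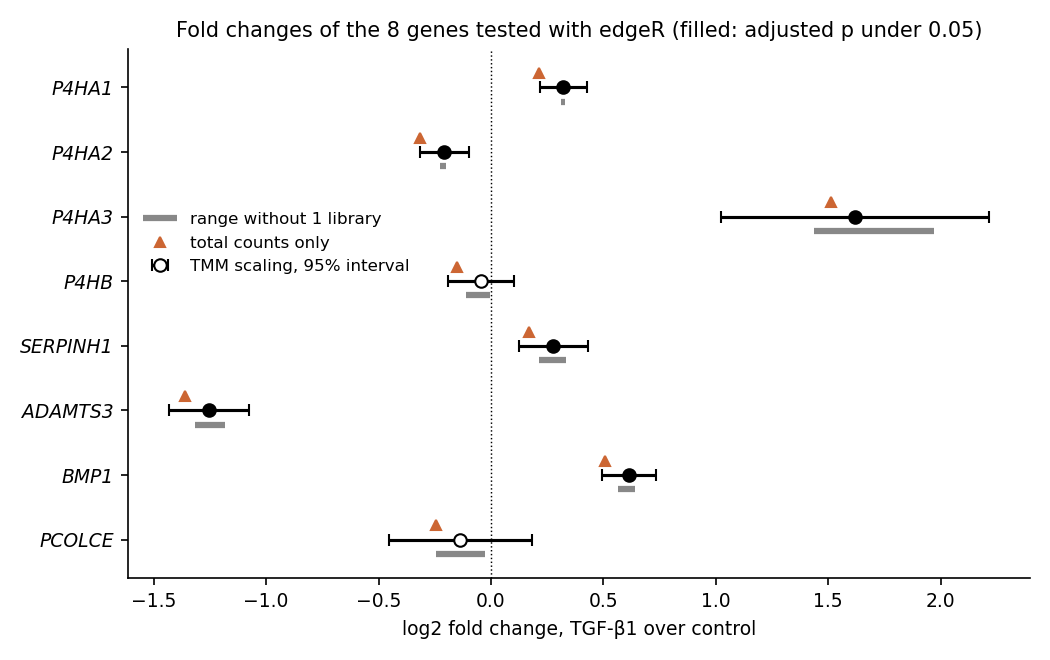
Log2 fold change of TGF-β1 over control for the 8 tested members with TMM scaling (circles, filled where the edgeR adjusted p was under 0.05, bars for the 95% interval), with total counts only (triangles) and as the range when each library was left out (grey bars). ADAMTS3 at -1.25 and P4HA3 at 1.62 lie farthest from 0, and all triangles lie left of their circles.

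Ordered per length in control cells, P4HB (1600 TPM) was followed by SERPINH1 (314), P4HA2 (292), P4HA1 (213), BMP1 (135), ADAMTS3 (52.6), PCOLCE (7.61), P4HA3 (0.750), ADAMTS14 (0.136) and ADAMTS2 (0.0640 TPM). The ranges of SERPINH1 and P4HA2 overlapped, and all other neighbours in this order were separated. After TGF-β1 the order was P4HB (1429 TPM), SERPINH1 (351), P4HA1 (245), P4HA2 (233), BMP1 (190), ADAMTS3 (20.4), PCOLCE (6.36), P4HA3 (2.13), ADAMTS2 (0.221) and ADAMTS14 (0.131 TPM). P4HA1 and P4HA2 then overlapped, whereas ADAMTS2 and ADAMTS14 were separated by 0.1416 against 0.1414 TPM in their nearest libraries.

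**Figure D4:**
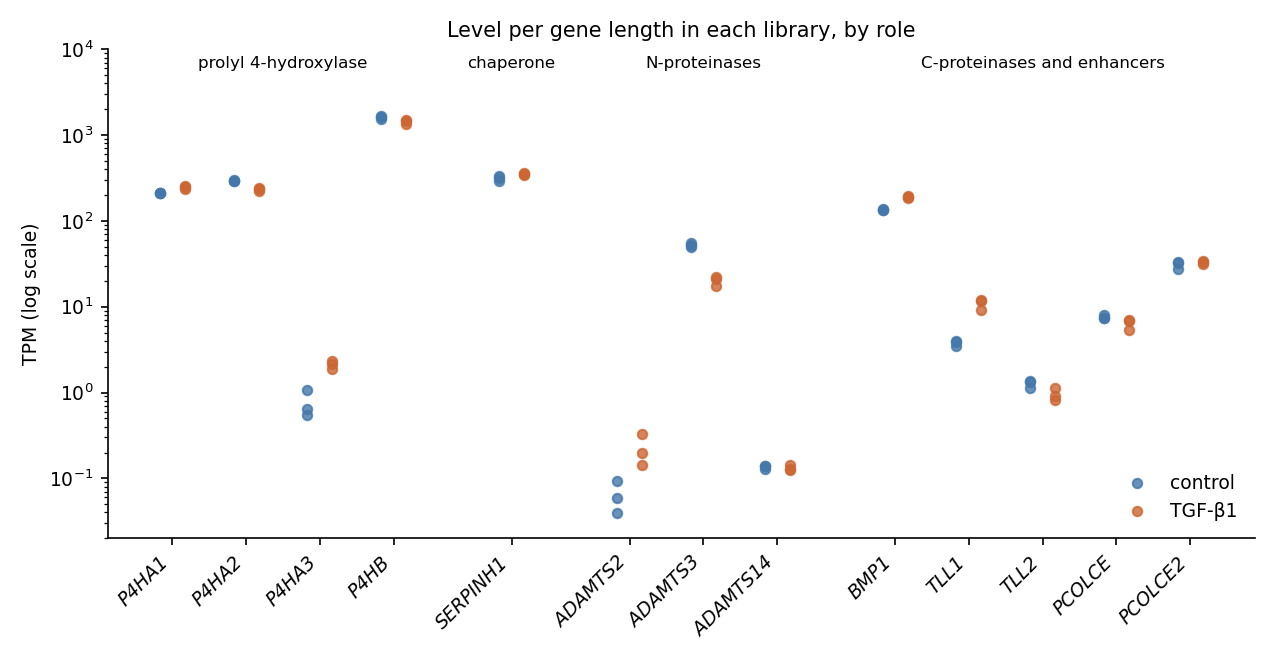
TPM on a log axis for the 10 genes and for TLL1, TLL2 and PCOLCE2, relatives of BMP1 and PCOLCE, 1 point per library (control blue, TGF-β1 orange). Levels run from P4HB, at 1354 TPM or more in every library, to ADAMTS2 and ADAMTS14, at 0.328 TPM or less in every library.

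These enzymes act on fibrillar procollagen chains. Of 11 fibrillar procollagen chain genes, 6 were tested, 4 were higher, 1 was lower, and their median log2 fold change was 1.19. COL1A1, the alpha 1 chain of type I collagen, went from 24.0 ± 0.366 to 236 ± 8.37 CPM (SD, n = 3), a log2 fold change of 3.30 ± 0.06 (SE). COL3A1 rose by 2.78 from 0.198 CPM, COL5A1 by 1.41 from 269 CPM and COL27A1 by 0.98 from 97.8 CPM, on the log2 scale. COL11A1 fell by 1.27 from 0.754 CPM. COL3A1 had 4, 5 and 5 reads in control libraries against 39, 35 and 26 with TGF-β1, and COL11A1 had 20, 18 and 15 against 8, 6 and 8. Both were thus under 10 reads in every library of the lower group and entered the test through the other group. With only genes at a mean of at least 50 counts, neither was tested and 3 chains were higher. COL1A2, which pairs with COL1A1 in type I collagen, had 1 read over all 6 libraries, in a TGF-β1 library.

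Of 21 genes of procollagen modification and export, 20 were tested, 11 were higher and 3 lower, and the median log2 fold change was 0.26. CREB3L1, a transcription factor of collagen-secreting cells, rose from 45.4 ± 5.10 to 87.2 ± 8.55 CPM (SD, n = 3). SPARC, a collagen-binding protein and the most abundant gene of the list, rose by 0.85 on the log2 scale. The complex that 3-hydroxylates proline was split: its cyclophilin PPIB rose from 86.9 to 150 CPM and its enzyme P3H1 from 98.9 to 149 CPM, while CRTAP fell from 242 to 211 CPM. P3H1 was named after its values were seen. FKBP10, a partner of SERPINH1 in collagen folding, rose from 239 to 381 CPM, and the galactosyltransferase COLGALT2 and the export adaptor KLHL12 fell by 0.61 and 0.30 on the log2 scale.

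P4HB belongs to the disulfide isomerases. Others of that family, with further genes such as the oxidases ERO1A and ERO1B, were followed as a list of 18 genes of ER oxidative folding. Of these 15 were tested, 7 were higher and 3 lower, with a median log2 fold change of 0.20. PDIA4 rose by 0.66, PDIA3 by 0.60, PDIA6 by 0.36 and PDIA5 by 0.35 on the log2 scale. The genes that fell were the oxidases ERO1B and ERO1A, by 0.31 and 0.22, and the chaperone ERP29, by 0.24.

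Most ER stress chaperones and their partners were higher. All 16 were tested and 13 were called higher by edgeR, beside 22.2% higher among all genes, and the log2 fold changes ran from 0.068 to 0.76 with a median of 0.52. DNAJB11, a cochaperone, rose by 0.76, HERPUD1, of ER-associated degradation, by 0.74, the secreted factor MANF by 0.70 and the chaperone HSPA5 (BiP) by 0.69 on the log2 scale. The most abundant, HSP90B1 and CALR, rose by 0.53 and 0.41.

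SERPINH1 is also a heat shock gene. Of 12 other heat shock genes 10 were tested, 4 were higher and 1 lower, with a median log2 fold change of 0.11. HSPB1 rose by 0.60, BAG3 by 0.47, DNAJA1 by 0.32 and HSPA8 by 0.31 on the log2 scale, and HSP90AA1 fell by 0.24.

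Prolyl 4-hydroxylases use oxygen and 2-oxoglutarate, and P4HA1 and P4HA2 are known targets of the hypoxia response. Of 7 other hydroxylases of this type 6 were tested and 2 were called lower by edgeR, with log2 fold changes between -0.81 and -0.10 and a median of -0.22. P4HTM, a transmembrane prolyl hydroxylase, fell by 0.54 and ASPH, which hydroxylates aspartate, by 0.25 on the log2 scale. The number lower was 4 without TGF-β1 replicate 1 and also 4 without TGF-β1 replicate 3, and 6 with total counts only. Of 16 hypoxia response genes 15 were tested, 2 were higher and 6 lower, with a median of -0.099. ADM, encoding adrenomedullin, fell by 2.08, the carbonic anhydrase CA9 by 1.39, NDRG1 by 0.77 and the mitophagy receptor BNIP3 by 0.56. The growth factor VEGFA rose by 1.36 and the glucose transporter SLC2A1 by 0.45. Without TGF-β1 replicate 1, 4 of these genes were higher.

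Relatives of BMP1 and PCOLCE were few. Of 5 tolloid and meprin relatives 3 were tested and 1 was higher, with a median log2 fold change of 0.19. TLL1, a tolloid protease that can also cut the C-propeptide, rose from 12.0 ± 0.941 to 37.5 ± 4.56 CPM (SD, n = 3), a log2 fold change of 1.65 ± 0.10 (SE). Per length it stayed below BMP1, at 3.79 TPM in control and 10.9 TPM after TGF-β1. PCOLCE2, a second enhancer, was at 31.2 and 32.9 TPM, above PCOLCE in both groups, and was not called (log2 fold change 0.19 ± 0.08 (SE), edgeR adjusted p = 0.0641).

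Other ADAMTS proteases moved both ways. Of 16 such genes 10 were tested, 5 were higher and 3 lower, with a median log2 fold change of 0.24. ADAMTS15 rose by 2.15, ADAMTS6 by 1.48, ADAMTS7 by 1.37 and ADAMTS10 by 0.89 on the log2 scale. ADAMTS9 fell by 0.71, ADAMTS12 by 0.65 and ADAMTS1 by 0.61. ADAMTS12 had more than 1 entry of its name, so that its value is uncertain where reads match both.

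BMP1 also cuts proteins other than procollagen. Of 15 other substrates 11 were tested, 7 were higher and 3 lower, with a median log2 fold change of 0.22. The collagen cross-linking enzyme LOX rose from 172 ± 3.72 to 673 ± 18.6 CPM (SD, n = 3), a log2 fold change of 1.97 ± 0.05 (SE). The proteoglycan BGN rose by 1.30, FN1, encoding fibronectin, by 0.98 and LTBP1, which binds latent TGF-β, by 0.89 on the log2 scale. The laminin chain LAMA3 fell by 2.08 and the proteoglycan HSPG2 (perlecan) by 0.77.

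**Figure D5:**
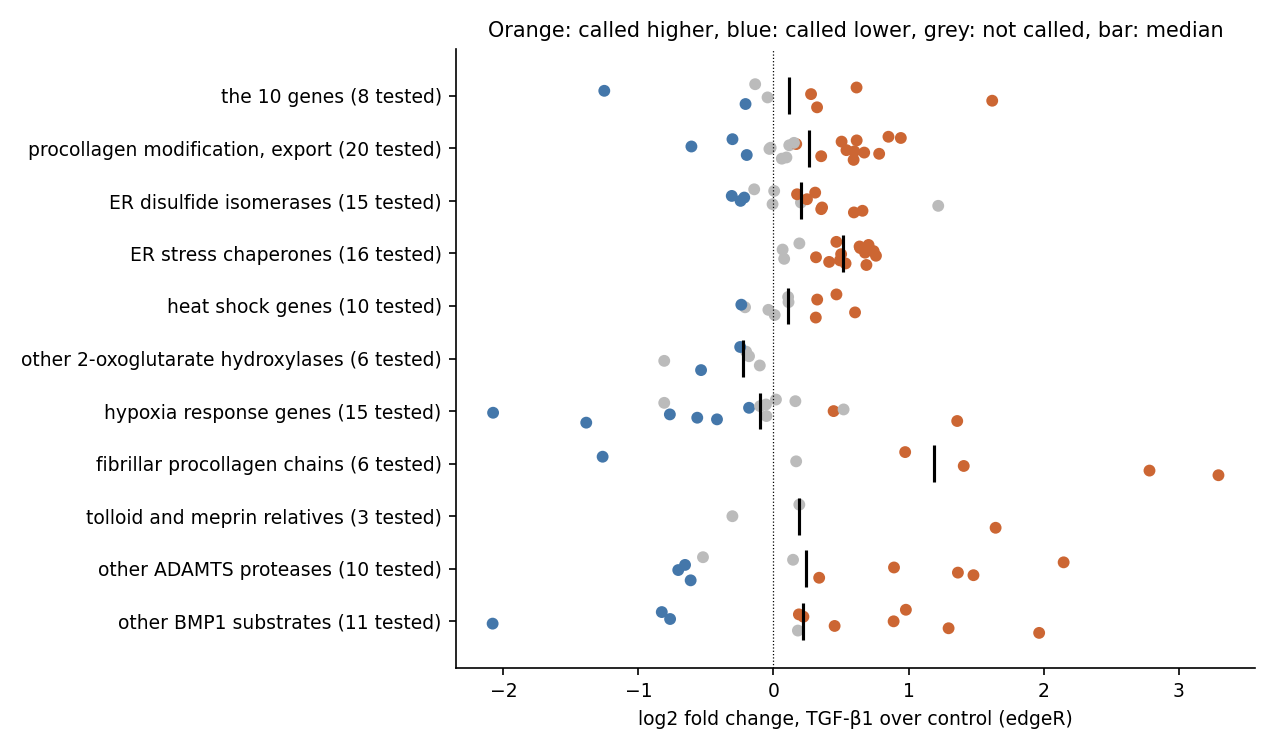
Log2 fold change of each tested gene (1 point) in the member set and in 10 lists of related genes, with called genes in orange (higher) and blue (lower), others in grey, and the median of each list as a bar. ER stress chaperones lie right of 0 with a median of 0.52 and fibrillar procollagen chains have a median of 1.19, while the median of the 8 tested members is 0.12.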

How the data were processed

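Poly(A) RNA of 6 HK-2 libraries (3 control, 3 TGF-β1, grouped by their labels) was analysed. Per the file headers, the authors deposited raw counts per gene, and TPM and FPKM values that they computed from them. FPKM was not used here. The submitters' processing notes name CASAVA, featureCounts 2.0.1, DESeq2 1.16.1 and build hg38. The aligner is not given in the sources used here, nor is whether counting used strand, so reads of overlapping antisense genes may be mixed. Each file held 7 records broken over lines, which were rejoined.

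Of 42095 entries, 598 had no gene name (0.396% to 0.464% of counts) and were left out. Genes were kept by filterByExpr (minimum count 10) of edgeR 4.0.16, scaled by TMM and compared by the quasi-likelihood test (two-sided, Benjamini-Hochberg over 14860 genes) in R 4.3.3 with limma 3.58.1, and with DESeq2 1.42.0 as an alternative. Other work used Python 3.11.15 and scipy 1.17.1. The edgeR, DESeq2 and limma-voom fits were tested on simulated counts with far fewer changed genes than were called here. This simulation did not cover the exact tests or the ratios. Low genes were compared by the exact conditional test of summed reads and the exact permutation test. Intervals on reads cover counting error only. All 10 members were named. From each list of related genes, up to 4 called genes with the largest rise, up to 4 with the largest fall and the 2 most abundant could be named. P3H1, COL1A2 and TLL2 were added after their values were seen. The members and lists were chosen with earlier results of these data known. Some genes that this rule would name are not reported here.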

Additional observations from a re-analysis of the deposited data

How the results depend on the processing

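Each tested member kept its direction in each alternative in which it was tested (DESeq2, limma-voom, other scalings and filters, replicate block, summed entries of a name, leaving out each library). P4HA3 was not tested with a mean of at least 50 counts, which left 3 members higher. Calls of members were otherwise lost only as given next. Tested against a log2 fold change of 1 (glmTreat), 0 members were higher and 1, ADAMTS3, was lower. With total counts only, SERPINH1 was not called, 2134 genes were higher and 4590 lower, and 2 heat shock genes and 6 other hydroxylases were lower. Under the same scaling, 5 genes of ER oxidative folding (7 with TMM) and 5 other BMP1 substrates (7 with TMM) were higher. With no low-count filter, 2 heat shock genes and 2 fibrillar chains were lower. With DESeq2 or a mean of at least 50 counts, 0 fibrillar chains were lower, and DESeq2 did not call ADAMTS2. Leaving out each library gave 4 to 5 members higher, the added one being ADAMTS2. With at most 5 reads in any control library, ADAMTS2 then passed the filter only through TGF-β1 libraries, so this call adds no support. The same runs gave 2 to 4 hypoxia genes higher, 1 to 2 heat shock genes lower (2 without TGF-β1 replicate 3) and 2 to 4 hydroxylases lower. Other list counts stayed within 1.5 times those reported. The cause of these shifts was not tested.

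Whether replicate numbers pair the libraries could not be settled with 3 libraries per group: deviations of same-numbered libraries correlated at 0.103, -0.02 and 0.104. With the replicate block, 4 members were higher and 2 lower, 3396 of all genes were higher and 3394 lower, 2 heat shock genes and 4 hydroxylases were lower, and ADAMTS3 was at -1.25. Control replicate 3 and TGF-β1 replicate 3 were each other's best match, as were both replicates 1, but not both replicates 2. Depth limits ADAMTS2 and ADAMTS14, with 10 and 39 reads per group for the first and 18 and 19 for the second.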
